A study of Bos taurus with 9 samples.

Results

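In mature bovine oocytes, 55 transcripts were measured at a lower level in every library matured with iodoacetate or dichloroacetate than in any control library. They are 55 of the 6531 transcripts that met the level limits of the rule, and the deposited table holds 15978. The members were chosen by their measured values in these same 9 libraries. Each transcript had a mean of at least 10 CPM, the count per 1000000 counts of its library. The 100 transcripts with the highest means and 1 further row named in the rule were left out. A member had its highest value among the 6 treated libraries below its lowest value among the 3 control libraries, and its treated mean was at most 0.67 of its control mean. The treated to control differences below therefore describe the choice and carry no test.

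Cumulus-oocyte complexes of cattle, aspirated from follicles of 2 to 4 mm in slaughterhouse ovaries, were matured in vitro for 24 h, and the question was how a change in pyruvate metabolism alters the oocyte's transcripts. The iodoacetate group matured in medium with iodoacetate (IA), the dichloroacetate group in medium with dichloroacetate (DCA), and the control group (CTRL) with neither. All 3 groups shared the same base medium, with fetal bovine serum, FSH, hCG and estradiol. Each group had 3 libraries, each from a pool of 5 oocytes stripped of cumulus cells and showing a polar body. The labels list doses of 0.1 to 5 mM for dichloroacetate and 0.1 to 5 µM for iodoacetate without saying which dose the sequenced pools received, so the compounds are not compared at matched doses. Whether pools of 1 group stem from separate cultures or animals is not stated in the labels, so the p-values below speak to the spread among these libraries alone, and that spread may be technical.

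A fully grown oocyte makes very little new RNA while it matures. It lives on mRNA stored during growth, which is translated, silenced or degraded on a schedule, often together with a change in the length of its poly(A) tail. Iodoacetate is an alkylating agent known for blocking glyceraldehyde-3-phosphate dehydrogenase in glycolysis. Dichloroacetate is known for inhibiting the kinases that switch off pyruvate dehydrogenase, the entry of pyruvate into the citric acid cycle. Fewer oocytes with a given transcript and fewer copies per oocyte cannot be told apart in pools. Because poly(A) RNA was sequenced, a change in tail length and a change in copies cannot be told apart either.

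The table gives Ensembl identifiers without gene names, and 0 of them had a symbol in the gene table used here. The 55 transcripts are therefore described by level and rank, their functions are not given, and only the identifiers of the pair with the lowest ratios are printed. For the same reason markers of oocytes and cumulus cells were not analysed here.

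Library totals ran from 7776877 to 9454723 counts in the treated libraries and from 9249890 to 9834849 in the controls. These ranges overlapped, with 2 treated libraries above the shallowest control. With every library thinned at random to 7776877 counts, 54 transcripts met the rule, 49 of them members of the original 55.

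The 55 transcripts covered the usual range of abundance. Their mean over the 9 libraries had a median of 46.7 CPM, against 46.0 CPM over the 6531 transcripts, and ran from 10.2 to 872 CPM. In the control libraries 20 of the 55 averaged 100 CPM or more, and 9 averaged under 20 CPM. Their control mean had a median of 64.7 CPM, against 46.4 CPM over the 6531 transcripts, and the rule itself favours high control values. Together they made up 0.731%, 0.768% and 0.851% of all counts in control libraries 1, 2 and 3. The same sum was 0.428%, 0.470% and 0.469% in the iodoacetate libraries and 0.438%, 0.523% and 0.513% in the dichloroacetate libraries. In summed CPM this was 7833 ± 613 in the control, 4554 ± 241 with iodoacetate and 4914 ± 462 with dichloroacetate (SD, n = 3 each). All 6 treated sums lay below all 3 control sums, as the choice of members fixes. The map of the 55 transcripts by library shows the same order row by row.

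**Figure D1:**
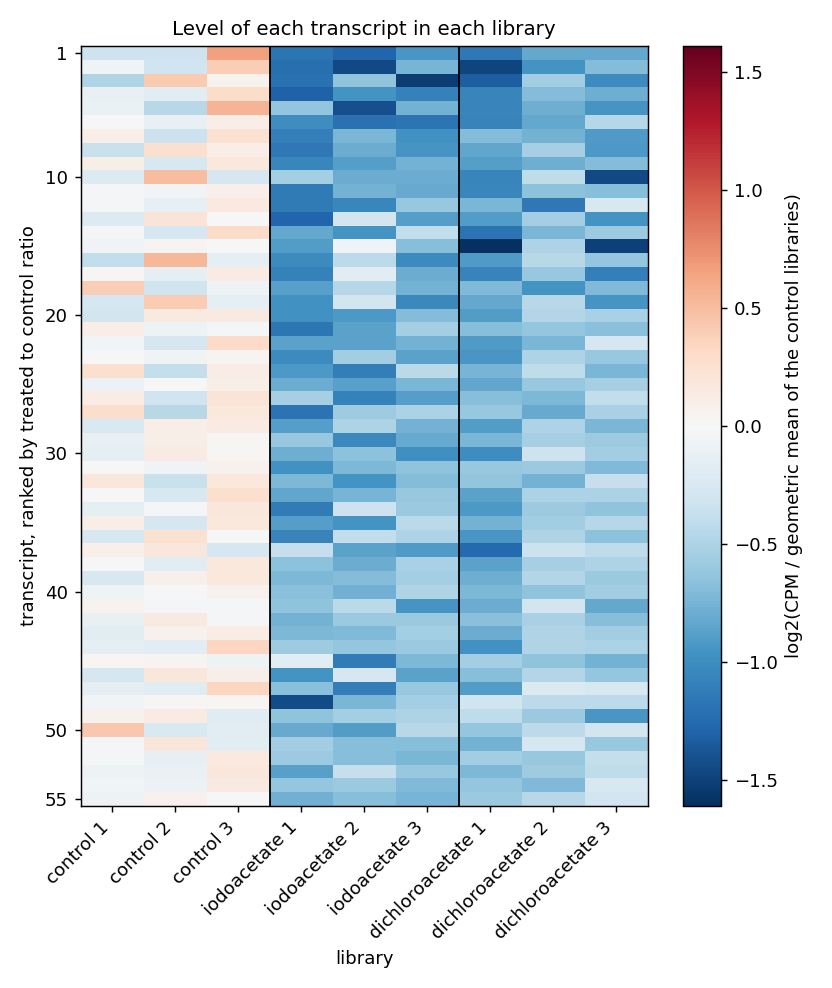
Heat map of the 55 transcripts (rows, ranked by the ratio of treated to control mean from lowest at the top) in the 9 libraries (columns). Colour gives log2 of CPM over the geometric mean of the 3 control libraries, blue lower and red higher; the treated columns are blue, in places nearly white, because the members were chosen that way, and shades vary from row to row within a group.

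The reductions in measured level were moderate. The ratio of treated to control mean had a median of 0.611 and ran from 0.467 to 0.667, while the median over the 6531 transcripts was 0.981. Only 3 of the 55 had a treated mean at or below 0.5 of the control mean. Set against the control, the iodoacetate mean had a median ratio of 0.591 (0.435 to 0.704) and the dichloroacetate mean one of 0.637 (0.462 to 0.763). Both ratios use the same 3 control libraries. The last 2 transcripts inside the limit had ratios of 0.666 and 0.667, and the next 2 separated transcripts outside it had 0.673 and 0.674, so the ratios run on across the limit without a break.

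The lowest ratio belonged to ENSBTAG00000047659. It measured 25.0, 23.5 and 29.8 CPM with iodoacetate, 25.6, 32.2 and 32.0 CPM with dichloroacetate, and 45.1, 45.2 and 89.7 CPM in the control. Control library 3 stood well above the other 2, and the control mean of 60.0 ± 25.7 CPM (SD, n = 3) has the widest relative spread of the 55. The treated to control ratio was 0.467 with all libraries and 0.620 without control library 3.

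ENSBTAG00000012401, a scarcer transcript, came next. Its levels were 6.66, 5.61 and 9.20 CPM with iodoacetate, 5.52, 7.93 and 9.52 CPM with dichloroacetate, and 14.7, 12.3 and 20.2 CPM in the control. The treated groups were level with each other, at 7.16 ± 1.85 and 7.66 ± 2.01 CPM, and the control averaged 15.7 ± 4.06 CPM (SD, n = 3 each). Its highest treated library held 74 counts and its lowest control library 114, and the 95% Poisson intervals of these values overlapped.

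**Figure D2:**
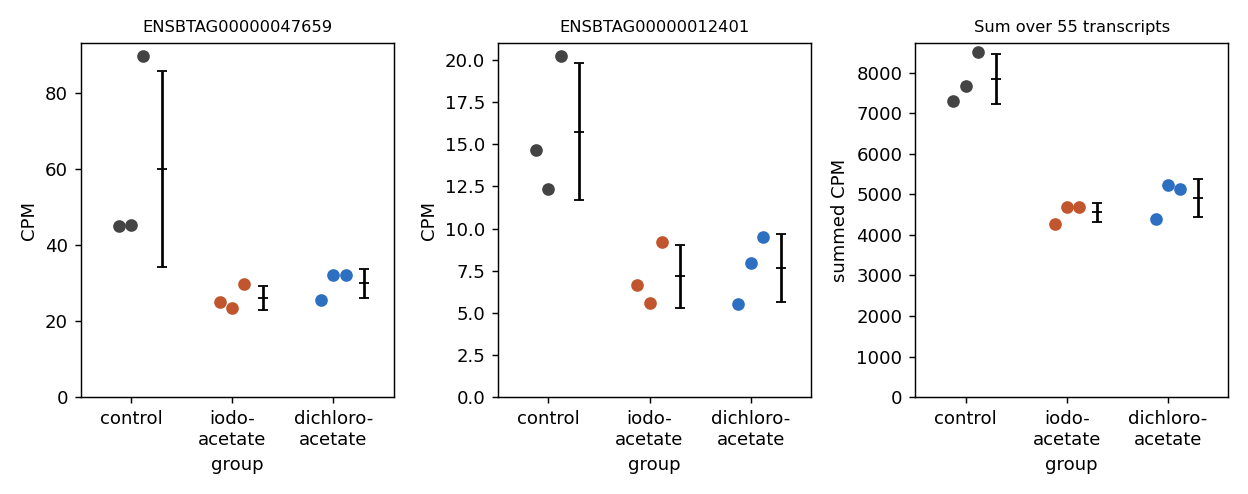
CPM of the pair of transcripts with the lowest ratios, and the summed CPM of all 55, by group; points are libraries in the order 1 to 3 and the bars are mean ± SD (n = 3). Control library 3 is the highest point in each panel, at 89.7, 20.2 and 8509.

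Other members are described here by their place in the list, chosen after their values were seen. The most abundant, at rank 39, measured 690, 700 and 779 CPM with iodoacetate, 662, 823 and 749 CPM with dichloroacetate, and 954, 1206 and 1280 CPM in the control. The treated libraries lay close together and control library 1 came nearest to them. The least abundant in the control, at rank 50, measured 7.40, 6.98 and 9.52 CPM with iodoacetate, 8.45, 9.69 and 10.5 CPM with dichloroacetate, and 17.6, 10.9 and 11.4 CPM in the control. Here 1 control library carried most of the difference, and the other 2 lay just above the highest treated value.

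The clearest gap was at rank 11. This transcript measured 33.8, 44.1 and 42.5 CPM with iodoacetate, 36.1, 47.0 and 46.4 CPM with dichloroacetate, and 72.8, 72.4 and 78.8 CPM in the control. Its lowest control value was 1.54 times its highest treated value, and it was the only member in which this quotient reached 1.5. The transcript at rank 31 followed with 1.45: 267, 318 and 333 CPM with iodoacetate, 343, 345 and 319 CPM with dichloroacetate, and 519, 501 and 549 CPM in the control. In both, the controls were tight, with coefficients of variation (SD over mean) of 4.78% and 4.60%.

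For most members the gap was narrow. The lowest control value was a median of 1.14 times the highest treated value, and in 20 of the 55 the quotient was under 1.1. At rank 46 iodoacetate library 2 reached 63.04 CPM and control library 1 stood at 63.10 CPM, a quotient of 1.00. The 95% Poisson intervals of the lowest control and the highest treated value overlapped in 35 of the 55 and stayed apart in 20. Overlap of such separate intervals does not show that counting error alone spans the gap. These intervals cover counting error only, and copies made during amplification are not independent molecules. Counts per library ran from 47 upward, with a median over members of 281 for the lowest of the 9 libraries.

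Among the 6531 transcripts, the rule picked 0.842%, and the reverse pattern (every treated library above every control, control mean at most 0.67 of the treated mean) held for 69, or 1.06%. Without the limit on the ratio, 195 transcripts, or 2.99%, had all treated libraries below all controls. The ratio limit alone was met by 234, of which 179 overlapped between treated and control libraries, 30 of them through 1 treated library.

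The rule asks for the same count for each of the 84 ways of taking 3 of the 9 libraries as the high ones. The labelled control libraries gave 55, and 3 other ways gave more, with 661, 166 and 141. The 83 other ways had a median of 8, with quartiles of 4 and 14, and 4 ways gave 0. The count of 661 belonged to library 2 of each group, and the counts of 166 and 141 to control libraries 2 and 3 with library 2 of iodoacetate or of dichloroacetate. The place of the labelled grouping depended on the scaling. With CPM scaled by TMM factors, which correct for differences in composition, 12 of the 84 ways gave at least as many transcripts as the labelled one, and with DESeq2 size factors 10 did. The highest count of any way was 298 with TMM factors and 268 with DESeq2 size factors, against 661 in CPM by library totals. For the reverse pattern the labelled grouping gave 69, reached by 10 of the 84 ways.

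**Figure D3:**
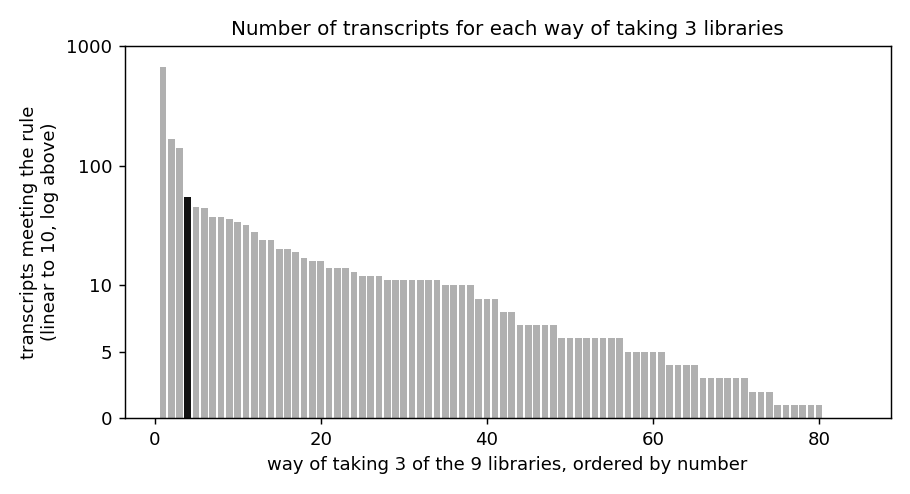
Number of transcripts that meet the rule (vertical axis, linear up to 10 and logarithmic above) for each of the 84 ways of taking 3 of the 9 libraries as the high ones, from most to fewest. The black bar is the labelled control group with 55 transcripts; 3 grey bars stand above it, the tallest at 661.

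In CPM by library totals, library 2 of each group thus stands apart from the others, and the 55 transcripts were looked at with this in view. Among them control library 2 was the lowest control for 28 (50.9%, against 30.7% of the 6531 transcripts) and control library 3 the highest for 30 (54.5%, against 20.4%). Control library 1 was the highest for 7 (12.7%, against 33.7%). The member sums were likewise highest in control library 3. The rule used these same values, so the shares over all transcripts in this paragraph are not a like comparison. Nothing is read from the differences between members and all transcripts. In 18 of the 55 transcripts control library 2 was the highest control, and in 15 of these 18 dichloroacetate library 2 was also the highest of its group and in 10 iodoacetate library 2 was. Over all transcripts with control library 2 on top these shares were 81.2% and 68.7%. In the 28 with control library 2 lowest, iodoacetate library 2 was the lowest of its group in 12 and the highest in 8. Dichloroacetate library 2 was the lowest of its group in 7 and the highest in 10. Over all transcripts with control library 2 lowest, iodoacetate library 2 was lowest in 56.5% and highest in 13.4%. For dichloroacetate library 2 the shares were 45.7% and 25.1%. With library 2 of each group left out, a setting added once the data had been seen, 207 transcripts met the rule, and 51 of the 55 were among them. Fewer libraries make the rule easier to meet, and the part of library 2 in the result was not tested.

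The members also varied together to a limited degree. After removal of each group's mean, log2(CPM + 1) correlated between pairs of members with a median Pearson coefficient of 0.23 over the 9 libraries (1485 pairs, quartiles -0.14 and 0.54). Over all pairs of the 6531 transcripts the median was 0.07. All these pairs share the same 9 libraries and their scaling, so the coefficients are descriptions. Within groups the members were somewhat less variable than other transcripts in the control, with a median coefficient of variation of 14.9% against 20.7%, a difference that is not independent of a rule asking for separation. With iodoacetate it was 14.7% against 17.9% and with dichloroacetate 13.7% against 17.3%. These differences are not independent of the rule either, since it also limits the highest treated value.

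Choosing the transcripts without a library and then reading that library gives values that took no part in the choice, although the other libraries did. The treated libraries that each left-out control is read against were chosen for low values. The shares and ratios over all transcripts kept are therefore not a like comparison, and nothing is read from the excess over them. Without control library 1, 239 transcripts met the rule, and in 60 of them (25.1%) control library 1 lay above every treated library, as it did in 15.7% of all transcripts kept. Their treated mean was a median of 0.595 of the 2 controls that chose them and 0.926 of control library 1. Without control library 2, 109 were chosen and 59 (54.1%, against 30.2%) held in it, with median ratios of 0.606 and 0.796. Without control library 3, 76 were chosen and 52 (68.4%, against 15.9%) held in it, with median ratios of 0.622 and 0.666. The median ratio was nearer 1 in each left-out control than in the controls that chose, which the limit on the ratio makes likely. The sets of transcripts differ as well, so the control libraries are not ranked by these ratios. Over all transcripts kept, the median ratio of the treated mean to these libraries was 1.03, 0.96 and 1.03.

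The same was done for the treated libraries. Of the transcripts chosen without 1 iodoacetate library, 52 of 54, 51 of 66 and 57 of 60 had that library below the lowest control value, for libraries 1, 2 and 3, where 31.7%, 19.6% and 25.6% of all transcripts did. For dichloroacetate the counts were 50 of 50, 60 of 94 and 64 of 75, against shares of 32.5%, 12.04% and 31.4%. Library 2 had the lowest share in both treated groups. The controls that set this bound were chosen for high values, and most of these transcripts were members. The shares over all transcripts are therefore not a like comparison, and nothing is read from the excess over them.

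The difference between iodoacetate and dichloroacetate was not used by the rule, beyond the upper limit that the controls set for both, and was tested across the whole table. Most members were slightly lower with iodoacetate. In the edgeR fit the log2 fold change of iodoacetate over dichloroacetate was below 0 in 43 of the 55, with a median of -0.12, and below 0 in 48.2% of all 12016 genes tested. Without dichloroacetate library 3 the count was 34 and the median -0.04. Without any other single library the count lay between 40 and 44. Members share their libraries, so no test was made over them.

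No member differed between the compounds after adjustment. At an adjusted p under 0.05, the quasi-likelihood test of edgeR called 0 of the 12016 genes (0%), as did DESeq2. At an unadjusted p under 0.05 the edgeR fit held 186 genes, or 1.55%, and 1 of the 55 members, at rank 15. That transcript measured 38.3, 68.2 and 44.6 CPM with iodoacetate, 23.4, 50.6 and 25.2 CPM with dichloroacetate, and 68.9, 73.9 and 72.0 CPM in the control. Library 2 was the highest of each treated group and iodoacetate library 2 nearly reached the controls. Its log2 fold change was 0.63 with a standard error of 0.26 (95% interval 0.08 to 1.19; edgeR unadjusted p = 0.0286, adjusted p = 0.99982), higher with iodoacetate, against the direction of most members.

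The next by p, at rank 6, went the other way. It measured 220, 193 and 196 CPM with iodoacetate, 211, 249 and 322 CPM with dichloroacetate, and 443, 409 and 478 CPM in the control. Its log2 fold change was -0.37 with a standard error of 0.20 (95% interval -0.80 to 0.06; edgeR adjusted p = 0.99982). The treated groups overlapped through dichloroacetate library 1. With the title order as a replicate block edgeR again called 0 genes between the compounds, 384 had an unadjusted p under 0.05, and the members among these were those at ranks 15 and 6.

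In 2 of the 55 all iodoacetate libraries lay below all dichloroacetate libraries, and in 0 the reverse held. The treated groups were apart in 3.32% of the 6531 transcripts, so 2 of 55 is close to the share over all. The first, at rank 48, measured 5.80, 9.41 and 10.7 CPM with iodoacetate, 12.5, 11.7 and 11.7 CPM with dichloroacetate, and 15.2, 15.9 and 16.0 CPM in the control. The other, at rank 55, measured 157, 167 and 159 CPM with iodoacetate, 176, 196 and 216 CPM with dichloroacetate, and 253, 280 and 269 CPM in the control. Their log2 fold changes were -0.48 with a standard error of 0.27 and -0.29 with one of 0.17. Both thus stood in the order iodoacetate, dichloroacetate, control in every library, the step to the control being fixed by the rule. Neither passed edgeR's test (adjusted p = 0.99982 for both).

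A p that misses the threshold does not show that the compounds act alike. The 95% interval of the difference lay within a 2-fold change either way for 53 of the 55 members (96.4%), and within 1.5-fold for 21 (38.2%). For the 6531 transcripts these shares were 92.8% and 36.3%. The fold changes of the members ran from -0.48 to 0.63 with a median standard error of 0.23. A difference of 1.5-fold between iodoacetate and dichloroacetate was thus within the interval for 34 members.

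**Figure D4:**
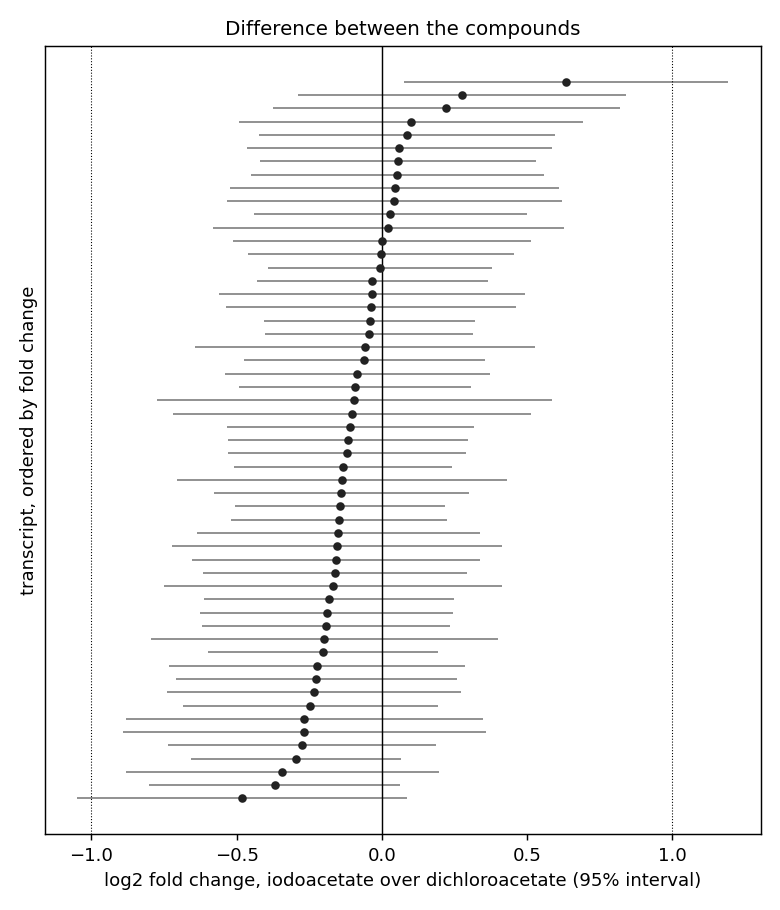
Log2 fold change of iodoacetate over dichloroacetate for the 55 transcripts, in order, with 95% intervals from the edgeR fit (lines) and dotted marks at a 2-fold change. The points run from -0.48 to 0.63, more of them lie to the left of 0, and 1 interval leaves 0 out.

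For the contrast that the rule used, the mean of both treated groups against the control, edgeR's quasi-likelihood test called 0 of 12016 genes (0%) at an adjusted p under 0.05, with a smallest adjusted p of 0.213. At an unadjusted p under 0.05 it had 1212 of the 12016 genes, and all 55 members were among them, as their choice makes likely. That fit takes the libraries as unpaired. A fit with the order of the sample titles within each group as a replicate block was added once the data had been seen. The labels do not describe this pairing. With it edgeR called 360 of the 12016 genes, 176 higher and 184 lower in the treated libraries. Of the lower ones, 43 were members. DESeq2 without a block called 59 of the 11016 genes given an adjusted p, 24 higher and 35 lower in the treated libraries. Of these 59, 21 were members. Nothing is read from these member counts, since the same values chose the members.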

How the data were processed

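Poly(A) RNA of 9 oocyte pools was sequenced (100 bp paired-end reads, SMART-Seq HT and Nextera XT, per the labels' protocols). The authors deposited raw read counts per Ensembl gene, made with Trim Galore, cutadapt, STAR and featureCounts per the submitters' processing notes, which also name DESeq2. Versions, genome build, annotation and counting mode were not found (not given in the sources used here), so reads of near-identical or overlapping genes may be divided in an unknown way, and the kit does not mark strand. Columns were assigned by title and groups by the treatment label. The members and lists were chosen with earlier results of these data known. The gene lists by symbol that had been set out could not be used, since no identifier had a name. CPM used library totals. The named transcripts were the 2 with the lowest ratio of treated to control mean. The groups were fitted together in edgeR 4.0.16 (R 4.3.3; TMM, default filter, robust quasi-likelihood test, Benjamini-Hochberg adjustment over all genes tested), with standard errors from the F statistic; DESeq2 1.42.0 was an alternative. The rule was checked on a few made-up rows. The fit was run on simulated counts drawn independently for each library, without the shared pattern of library 2. Library totals of 7776877 to 9834849 counts set the counting precision, given as exact 95% Poisson intervals. Other scalings, limits and filters, thinning, the removal of libraries and a replicate block by title order were tried.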

Additional observations from a re-analysis of the deposited data

How the results depend on the processing

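The count of 55 moved with the limits: 152 transcripts at a mean of at least 1 CPM, 37 at 30 CPM, 3 with a ratio of at most 0.5 and 155 with at most 0.8. It was 43 with TMM scaling and 46 with DESeq2 size factors; 38 of the 55, the 10 with the lowest ratios among them, were members under all 3 scalings, and the 17 lost had a median quotient of lowest control to highest treated value of 1.08 against 1.18. Keeping the most abundant rows left it at 55. Leaving out 1 library gave 50 to 239, with 239 without control library 1, 109 without control library 2 and 94 without dichloroacetate library 2, and leaving out library 2 of every group gave 207; fewer libraries make the rule easier to meet. Between the compounds, every setting run called 0 genes, with 144 to 388 at an unadjusted p under 0.05. For both treated groups against the control, DESeq2 called 59 (it gave an adjusted p to 11016 of 15971 genes), and leaving out 1 library gave 0 to 11 in edgeR, with 11 without control library 2 and 1 without control library 3; the other edgeR settings without a block called 0. The cause was not tested. The removal of library 2 from every group, thinning and the count of groupings under other scalings were added once the data had been seen. The main fit has no replicate block, since no label says that libraries of different groups belong together. With the order of the titles within each group as a replicate block, also added after the data were seen, edgeR called 360 genes for both treated groups against the control and 0 between the compounds. Deviations from the group means over the 6531 transcripts correlated at 0.18 to 0.62 for libraries in the same place of that order, and 8 of the 9 libraries correlated best with such a library. The values of 0.52 to 0.62 were those of library 2, and the other places reached 0.45 at most. Between libraries in different places the highest value was 0.37. The pattern is a hint from the data, not the design. Counting intervals overlap in 35 members; whether depth sets the width of the gap was not tested, and thinning to the smallest total left 54 transcripts.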
